A study of Mus musculus with 6 samples.

Results

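The CREB transcription factors, their CRTC coactivators and the SIK kinases that restrain those coactivators were followed in gastrocnemius (GAS) muscle as a set of 10 genes, chosen by name from 24532 genes in the count table. They were the factors Creb1, Crem and Atf1, the coactivators Crtc1, Crtc2, Crtc3 and Crebbp, and the kinases Sik1, Sik2 and Sik3. RNA-seq had been done on 6 GAS muscles of C57BL/6 mice aged 20 weeks, male by the study's methods. The 3 WT libraries came from Sirt6 flox/flox mice without Cre. The 3 libraries labelled Sirt6 KO came from Myl1-Cre; Sirt6 flox/flox mice, so both groups carried the floxed allele and differed by the Cre. By the study's account, the Myl1 promoter drives Cre mainly in type II (fast) myofibers. Slow fibers and the non-muscle cells of the tissue may thus have kept the floxed allele, which was not measured here. The study's documents name different Sirt6 flox lines, and which one was used could not be settled.

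CREB family factors are leucine zipper proteins that bind the cAMP response element (CRE) and switch on genes after cAMP or calcium signals. Phosphorylated CREB recruits the acetyltransferase CREB-binding protein, encoded by Crebbp, while CRTC proteins bind the leucine zipper and raise transcription further. SIKs, which are activated by the kinase LKB1, phosphorylate CRTCs so that 14-3-3 proteins hold them in the cytoplasm, and calcineurin removes the phosphate. In skeletal muscle this pathway is known for its response to exercise and for the control of Ppargc1a, the gene of the mitochondrial regulator PGC-1alpha. Sik1 and Crem are themselves textbook targets of CREB, and Crem also encodes a short inducible repressor.

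Between 44845763 and 63016899 reads were counted per library, and 13801 genes passed the filter on low counts, all 10 members among them. Levels are in CPM, which divides each count by the TMM-adjusted total of its library. One read was worth 0.0165 to 0.0212 CPM. Sirt6, the gene targeted, gave 2.77, 2.23 and 2.88 CPM in WT against 7.81, 7.44 and 6.68 CPM in those labelled Sirt6 KO. It was thus higher in the libraries labelled KO (log2 fold change 1.48, SE 0.17, edgeR adjusted p = 0.0113), against the label, and every direction below is that of the labels. The deposited values sum over the whole gene and do not show the floxed exons. Fast fiber markers summed to 112000 to 183000 CPM in WT and to 160000 to 186000 CPM in the KO-labelled libraries. Fast muscle RNA was thus high in both groups, which does not tell GAS from other fast muscles. Slow fiber markers summed to 3280, 2690 and 125 CPM in WT and to 340, 1930 and 467 CPM in the KO-labelled libraries, so the amount of slow fiber RNA varied within both groups. Both satellite cell markers were higher in the KO-labelled libraries (Pax7 by 1.28 and Myf5 by 1.33 on the log2 scale, adjusted p = 0.0299 and 0.0225), with a sum of 1.59 to 2.21 CPM in WT and 3.78 to 5.45 CPM in KO-labelled libraries. No other list of cell type markers had a member called higher. In whole muscle, fewer cells of a type and less RNA per cell cannot be told apart. Log2 fold changes also followed the GC content of the gene across 13271 genes (Spearman's rho 0.339, a description), and the part of this in the results was measured by refitting with the trend removed. Among the members, GC content was 39.6 to 45.2% for the 3 factors and 49.2 to 57.0% for the coactivators and kinases.

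The promoters of the members were read from RefSeq (GRCm38.p6), as 300 bases from 250 before the transcription start to 50 after it. The promoters of 7 of the 10 genes were used. Those of Crem, Crtc2 and Sik1 were not, so the counts below do not cover these genes, and whether their promoters hold a CRE was not tested. Promoters are shown because the CRE is the element through which this family acts. The full CRE, TGACGTCA, was in 0 of these 7 promoters and in 1.79% of 32851 mouse promoters of the same length. Its core, TGACG or the reverse complement CGTCA on the printed strand, which every full CRE also holds, was in 3 of the 7 and in 20.8% of all. Atf1 held 1 core, starting 90 bases before the start site (position -90). Sik2 held 2, at positions -1 and 13, and Sik3 held 3, at positions -133, -116 and -57. Crtc3 and Crebbp, which were not called between the groups, held 0 cores, as did Creb1 and Crtc1, which were. Whether the core goes with a call was not tested. Below, the core is in capitals. The sequences of Creb1 (chr1:64532554-64532853, plus strand) and Crtc1 (chr8:70439524-70439823, minus strand) come first. Those of Sik2 (chr9:51009024-51009323, minus strand) and Sik3 (chr9:46012570-46012869, plus strand) follow, which were not called in the edgeR fit with group only.
Creb1: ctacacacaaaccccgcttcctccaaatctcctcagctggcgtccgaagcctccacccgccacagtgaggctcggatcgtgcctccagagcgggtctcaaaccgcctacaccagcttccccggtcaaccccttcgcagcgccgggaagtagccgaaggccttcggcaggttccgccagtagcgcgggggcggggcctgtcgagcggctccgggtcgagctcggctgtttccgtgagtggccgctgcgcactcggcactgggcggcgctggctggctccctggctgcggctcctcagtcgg
Crtc1: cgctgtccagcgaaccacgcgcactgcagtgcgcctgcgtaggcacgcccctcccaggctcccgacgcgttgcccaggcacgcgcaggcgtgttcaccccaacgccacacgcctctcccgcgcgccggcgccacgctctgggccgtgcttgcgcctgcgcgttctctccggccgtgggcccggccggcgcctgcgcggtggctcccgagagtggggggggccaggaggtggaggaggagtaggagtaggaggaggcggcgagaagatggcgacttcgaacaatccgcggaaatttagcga
Sik2: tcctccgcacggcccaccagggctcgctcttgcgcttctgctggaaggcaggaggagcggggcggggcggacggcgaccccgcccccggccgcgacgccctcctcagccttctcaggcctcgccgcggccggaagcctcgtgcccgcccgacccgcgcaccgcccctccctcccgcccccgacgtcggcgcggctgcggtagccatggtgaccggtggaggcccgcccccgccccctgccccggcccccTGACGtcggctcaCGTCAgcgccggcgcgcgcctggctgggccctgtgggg
Sik3: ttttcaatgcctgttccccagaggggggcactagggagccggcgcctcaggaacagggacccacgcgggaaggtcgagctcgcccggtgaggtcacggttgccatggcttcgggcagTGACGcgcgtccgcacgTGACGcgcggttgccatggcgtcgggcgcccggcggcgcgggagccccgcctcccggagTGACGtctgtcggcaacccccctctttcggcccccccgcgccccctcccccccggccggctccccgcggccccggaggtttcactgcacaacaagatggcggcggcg
A match to these letters is a description of the window and not a binding site.

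Of the 10 members, Creb1, Crem and Sik1 were called lower in the KO-labelled libraries (3 genes), Crtc1 was called higher (1 gene), and 6 did not pass the threshold of 0.05 on the adjusted p. Over all genes tested, 8.39% were called lower and 7.85% higher. The 3 KO-labelled values all lay below the 3 WT values for 4 members, against 19.6% of all genes, and all above them for 2 members, against 20.3% of all genes. The median log2 fold change was -0.24 over the members and -0.02 over all genes tested. With so few members these shares rest on 1 to 4 genes each. Before adjustment, 4 members were lower and 1 was higher at p under 0.05, and DESeq2 with adjustment also called 4 lower and 1 higher, Sik3 being the addition. Over all genes these rules gave 18.1% lower and 17.2% higher before adjustment, and 13.2% lower and 12.7% higher by DESeq2. The plot of levels by library shows the members on one scale.

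**Figure D1:**
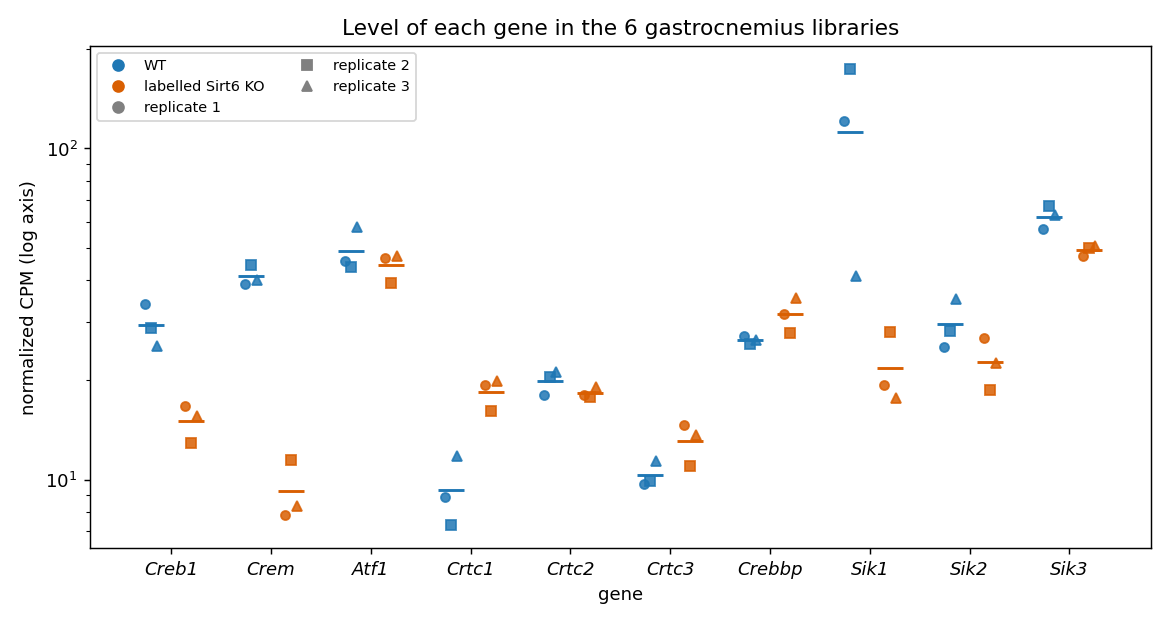
Normalized CPM (log axis) of the 10 genes in the 3 WT (blue) and 3 libraries labelled Sirt6 KO (orange), with 1 symbol per replicate number and a line at each group mean. Crem separates from about 41.2 to 9.24 CPM with little spread, whereas the WT values of Sik1 run from 41.3 to 174 CPM.

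Crem, whose gene lies on mouse chromosome 18 at 3266354 to 3337773 (minus strand), was the factor with the largest difference. It was at 38.9, 44.5 and 40.1 CPM in WT and at 7.83, 11.5 and 8.35 CPM in the KO-labelled libraries. The groups lay far apart, and the WT libraries agreed to within a coefficient of variation of 7.2%. The difference was 4.45-fold (log2 fold change -2.15, SE 0.17, edgeR adjusted p = 0.00873), with means of 41.2 ± 2.96 and 9.24 ± 2.01 CPM (SD, n = 3 each). Crem was the member that stayed called in all 15 alternatives, and in the fits that left out 1 library its log2 fold change ran from -2.33 to -2.05 with an adjusted p of at most 0.0475. After removal of the GC trend it was -1.94 (adjusted p = 0.0117).

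Crem has many start sites and splice forms that encode either activators or repressors, and the annotation behind the table lists 18 transcripts for it. The ratio of count to FPKM gives the mean transcript length that the quantification used, a measure chosen after the data had been seen. Set against the WT mean, it was 101, 99.5 and 99.3% in WT and 99.9, 102 and 96.8% in the KO-labelled libraries. The groups overlapped (two-sided exact permutation p = 0.9, n = 3 each), so no shift between long and short forms was detectable in this length. Forms of similar length cannot be told apart in this way, and the activator and repressor products were not measured separately. An antisense gene, Gm6225, shares 472 of the 5895 exon bases of Crem. Its counts were 5, 2 and 11 in WT and 3, 0 and 7 in the KO-labelled libraries, which is small beside those of Crem.

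Creb1 (chromosome 1, 64532794 to 64604548, plus strand) encodes CREB, the founding member of the family. It was at 34.0, 28.8 and 25.3 CPM in WT and at 16.7, 12.9 and 15.6 CPM in the KO-labelled libraries. All KO-labelled values were below all WT values. It was 1.95-fold lower (29.4 ± 4.36 and 15.1 ± 1.94 CPM, log2 fold change -0.96, SE 0.15, edgeR adjusted p = 0.0144). The call was lost without WT replicate 2 (adjusted p = 0.0525), KO-labelled replicate 1 (0.0608) or KO-labelled replicate 3 (0.0723), although the log2 fold change stayed between -1.06 and -0.83. Creb1 had the lowest GC content of the members, 39.6%, and with the GC trend removed the difference was -0.64 (adjusted p = 0.0508). The length used for its 3 listed transcripts was 99.8 to 100% of the WT mean in every library.

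Atf1 (chromosome 15, 100227859 to 100261248, plus strand) encodes the closest relative of CREB and pairs with it. Its levels were 45.6, 43.8 and 57.9 CPM in WT and 46.8, 39.2 and 47.3 CPM in the KO-labelled libraries. These overlapped, with a log2 fold change of -0.15 (SE 0.14, edgeR adjusted p = 0.497) that became 0.0012 (adjusted p = 0.996) with the GC trend removed. The plot of fold changes shows each member with and without that trend.

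**Figure D2:**
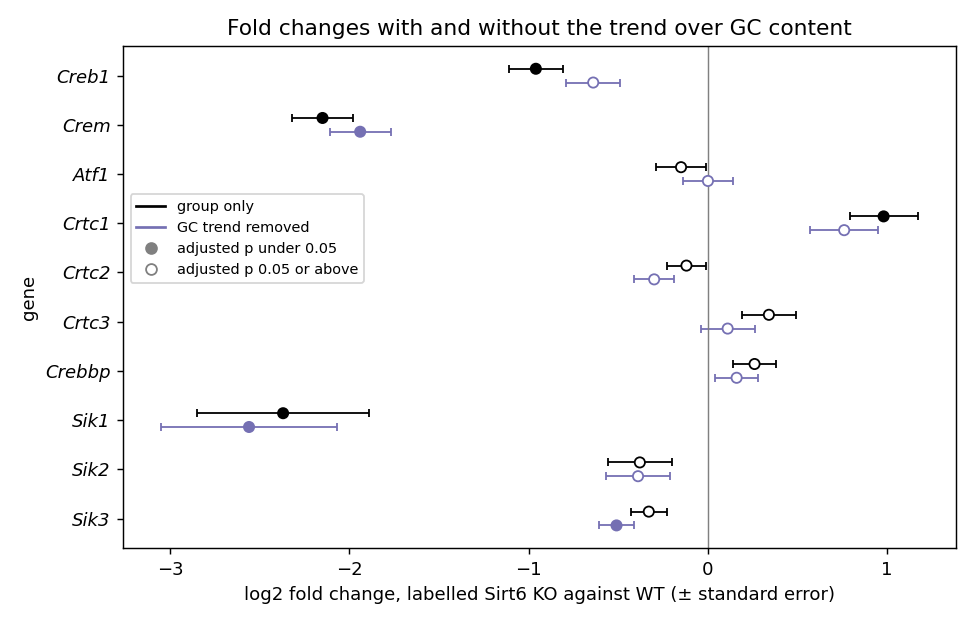
Log2 fold change of each gene, libraries labelled Sirt6 KO against WT, with its standard error, in the edgeR fit with group only (black) and after removal of the trend over GC content (violet). Filled points have an adjusted p under 0.05. Crem and Sik1 are filled in both fits, Creb1 and Crtc1 in the first, and Sik3 in the second.

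Of the 4 coactivators, 1 was called, and it was higher. Crtc1 (chromosome 8, 70382352 to 70439702, minus strand), the CRTC best known from neurons, was at 8.84, 7.28 and 11.8 CPM in WT and at 19.3, 16.1 and 19.8 CPM in the KO-labelled libraries. The lowest KO-labelled value was above the highest WT value. It was 1.97-fold higher (9.32 ± 2.31 and 18.4 ± 2.03 CPM, log2 fold change 0.98, SE 0.19, edgeR adjusted p = 0.0213). The call was lost without WT replicate 1 (adjusted p = 0.0746), WT replicate 2 (0.0634), KO-labelled replicate 1 (0.0786) or KO-labelled replicate 3 (0.0901), with log2 fold changes of 0.83 to 1.19 over all 6 such fits. Its GC content was 56.5%, and removal of the GC trend gave 0.76 (adjusted p = 0.0562).

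Crtc2 (chromosome 3, 90253858 to 90264125, plus strand), known for its part in hepatic gluconeogenesis, was at 18.0, 20.4 and 21.2 CPM in WT and at 18.0, 17.8 and 19.1 CPM in the KO-labelled libraries. These values overlapped (log2 fold change -0.12, SE 0.11, edgeR adjusted p = 0.454). Crtc3 (chromosome 7, 80586627 to 80688948, minus strand) was at 9.68, 9.88 and 11.4 CPM in WT and at 14.6, 11.0 and 13.6 CPM in the KO-labelled libraries. It overlapped in 1 library of each group and was not called (log2 fold change 0.34, SE 0.15, edgeR adjusted p = 0.15). With the GC trend removed, these 2 log2 fold changes were -0.30 and 0.11. An antisense gene inside Crtc3, Gm15880, shares 0 exon bases with it. Its counts were 2, 9 and 12 in WT and 26, 34 and 21 in the KO-labelled libraries, and it was not called (edgeR adjusted p = 0.0946).

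Crebbp (chromosome 16, 4081334 to 4213957, minus strand), the acetyltransferase that phosphorylated CREB recruits, was at 27.2, 25.7 and 26.4 CPM in WT and at 31.7, 27.8 and 35.4 CPM in the KO-labelled libraries. Each KO-labelled value was above each WT value, but the spread was wider among the KO-labelled libraries and the difference was not called (log2 fold change 0.26, SE 0.12, edgeR adjusted p = 0.154). The WT values had a coefficient of variation of 2.76%, the lowest among the members in WT.

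Sik1 (chromosome 17, 31844248 to 31855804, minus strand), the inducible kinase of the family, showed the largest fold difference of the 10 genes in the edgeR fit with group only, and the widest spread. With the slow fiber covariate the log2 fold change of Crem was larger than that of Sik1 (-2.13 against -1.96), as it was without WT replicate 2 (-2.09 against -1.90). It was at 121, 174 and 41.3 CPM in WT and at 19.3, 28.0 and 17.7 CPM in the KO-labelled libraries. The groups did not overlap, yet the WT libraries differed among themselves by 4.22-fold, a coefficient of variation of 59.6%. The mean was 112 ± 66.8 CPM in WT and 21.7 ± 5.53 CPM in the KO-labelled libraries, 5.17-fold lower (log2 fold change -2.37, SE 0.48, edgeR adjusted p = 0.0229).

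WT replicate 3, the WT library lowest in Sik1, was also the one with the least slow fiber marker RNA (125 CPM) and the least erythroid marker RNA (46.6 CPM, against 297 and 291 CPM in the other WT libraries). It was also the lowest WT library in endothelial (132 against 218 and 247 CPM), fibroblast (468 against 864 and 669 CPM) and adipocyte (1.62 against 15.8 and 19.1 CPM) markers and the highest in fast fiber markers. Schwann (11.0 against 20.3 and 29.7 CPM) and satellite cell (1.59 against 1.88 and 2.21 CPM) markers were lowest there too, but macrophage markers were not (30.9 against 49.9 and 23.5 CPM). KO-labelled replicate 2, the highest of its group in Sik1, also had the most slow fiber (1930 CPM) and erythroid (181 CPM) marker RNA of that group. It was also the highest in adipocyte (35.8 against 7.79 and 13.7 CPM) and the lowest in fast fiber markers. Yet it was the lowest in fibroblast (547 against 571 and 576 CPM) and satellite cell (3.78 against 4.92 and 5.45 CPM) markers. In endothelial, Schwann and macrophage markers it lay between the other KO-labelled libraries. With the summed slow fiber level as a covariate the log2 fold change of Sik1 was -1.96 (SE 0.20, adjusted p = 0.00298), and the part of the other marker lists was not tested. Without WT replicate 3 it was -2.76 (adjusted p = 0.00408). The call was lost when any other library was left out, with adjusted p of 0.0742 without WT replicate 1, 0.0653 without WT replicate 2, and 0.0898, 0.0523 and 0.0987 without KO-labelled replicates 1, 2 and 3. In those 5 fits the log2 fold change stayed between -2.59 and -1.90. Removal of the GC trend gave -2.56 (adjusted p = 0.0335).

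Sik3 (chromosome 9, 46012820 to 46224194, plus strand) was at 57.0, 66.9 and 62.8 CPM in WT and at 47.2, 50.1 and 50.8 CPM in the KO-labelled libraries. The groups did not overlap, but the difference did not pass (log2 fold change -0.33, SE 0.10, edgeR adjusted p = 0.0652). It was called lower by DESeq2 (adjusted p = 0.0282), with the slow fiber covariate (0.0349) and with the GC trend removed (log2 fold change -0.51, adjusted p = 0.0383). Sik2 (chromosome 9, 50889644 to 51009132, minus strand), known from adipose tissue, was at 25.2, 28.2 and 35.1 CPM in WT and at 26.8, 18.7 and 22.5 CPM in the KO-labelled libraries. These overlapped (log2 fold change -0.38, SE 0.18, edgeR adjusted p = 0.167), and with the slow fiber covariate Sik2 was called lower (-0.45, adjusted p = 0.023). Ppp2r1b, antisense to Sik2, shares 1429 of the 9539 exon bases of Sik2 and was itself at a log2 fold change of -0.01 (SE 0.22, adjusted p = 0.975).

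Levels of different genes were compared per length, in the deposited TPM, in which each count is divided by transcript length and rescaled to a fixed total per library. In WT the means ran in the order Sik1 (56.2 TPM), Atf1 (45.8), Crem (43.7), Sik3 (21.7), Sik2 (18.0), Crtc2 (16.5), Creb1 (7.76), Crebbp (7.74), Crtc3 (4.41) and Crtc1 (3.55). Neighbours whose libraries overlapped were Sik1 and Atf1, Atf1 and Crem, Sik2 and Crtc2, and Creb1 and Crebbp. In the KO-labelled libraries the order was Atf1 (38.6 TPM), Sik3 (15.9), Crtc2 (14.1), Sik2 (12.9), Sik1 (9.68), Crem (9.04), Crebbp (8.53), Crtc1 (6.56), Crtc3 (5.18) and Creb1 (3.63). There the neighbours set apart were Atf1 and Sik3, Sik3 and Crtc2, Crebbp and Crtc1, and Crtc3 and Creb1. Creb1 was thus in place 7 of 10 in WT and in place 10 in the KO-labelled libraries. The median log2 difference in TPM over 13456 tested genes was -0.12, so levels on this scale sat slightly lower in the KO-labelled libraries. Relative to that median the log2 difference was -0.95 for Creb1, -2.16 for Crem, 1.01 for Crtc1 and -2.16 for Sik1. On this scale, unlike in CPM, the KO-labelled values of Atf1, Crtc2 and Sik2 also lay below all WT values. Those of Crebbp overlapped with the WT values in TPM. The share of all genes apart in TPM was not counted, so these separations are not read as results about the members.

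The 3 factors together made up 101, 98.9 and 91.5 TPM in WT and 54.2, 47.5 and 52.2 TPM in the KO-labelled libraries (97.2 ± 5.10 and 51.3 ± 3.44 TPM). The groups did not overlap, and the two-sided exact permutation p was 0.1 (n = 3 each), the lowest that 3 against 3 libraries allow. Of the difference between the means, -45.9 TPM, Crem accounted for 75.3%, Atf1 for 15.7% and Creb1 for 8.98%. These parts depend on the level of each gene, and Atf1 was not called (edgeR adjusted p = 0.497). The log2 difference in TPM was -0.25 for Atf1 and -1.07 for Creb1, against the median of -0.12 over tested genes. Crem made up 44.0, 49.3 and 41.2% of the summed factor RNA in WT and 14.6, 23.0 and 15.8% in the KO-labelled libraries. Atf1 made up 46.4, 42.9 and 52.5% in WT and 77.7, 70.5 and 77.1% in the KO-labelled libraries. Both shares separated the groups (exact permutation p = 0.1 each, 0.18 after Benjamini-Hochberg adjustment over the 9 shares computed). The share of Creb1 was 7.93 ± 1.63% and 7.06 ± 0.62% and overlapped (exact permutation p = 0.5, n = 3 each). Creb1 was the smallest of the 3 shares in every library.

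The 3 CRTC genes summed to 24.7, 24.8 and 23.9 TPM in WT and to 27.5, 23.4 and 26.6 TPM in the KO-labelled libraries. These sums overlapped (exact permutation p = 0.4, n = 3 each), while the shares of Crtc1 and Crtc2 in them did not. Crtc1 was 15.1, 11.7 and 16.8% of the CRTC sum in WT and 26.0, 24.1 and 26.0% in the KO-labelled libraries. Crtc2, the main CRTC by RNA in every library, was 66.5, 70.8 and 65.1% in WT and 52.2, 57.6 and 54.1% in the KO-labelled libraries. Both had an exact permutation p of 0.1 (0.18 adjusted over the 9 shares), and as shares of the same sum they are tied. The share of Crtc3 was 18.0 ± 0.415% and 20.0 ± 1.76% and overlapped.

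The 3 SIK genes summed to 103, 129 and 56.0 TPM in WT and to 40.5, 38.6 and 36.3 TPM in the KO-labelled libraries. No KO-labelled sum reached the lowest WT sum (exact permutation p = 0.1, n = 3 each), and Sik1 accounted for 81.1% of the difference between the means. Sik1 made up 62.3, 67.5 and 31.5% of the SIK sum in WT and 22.1, 31.9 and 21.3% in the KO-labelled libraries. WT replicate 3 lay among the KO-labelled libraries in this share (exact permutation p = 0.2, n = 3 each). Sik3 made up 21.1, 18.6 and 34.5% in WT and 38.8, 41.0 and 44.1% in the KO-labelled libraries, without overlap (exact permutation p = 0.1, 0.18 adjusted over the 9 shares). Sik3 RNA itself was not higher there (log2 fold change -0.33). The shares of Sik2 overlapped. The plot of shares by library sets these makeups side by side.

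**Figure D3:**
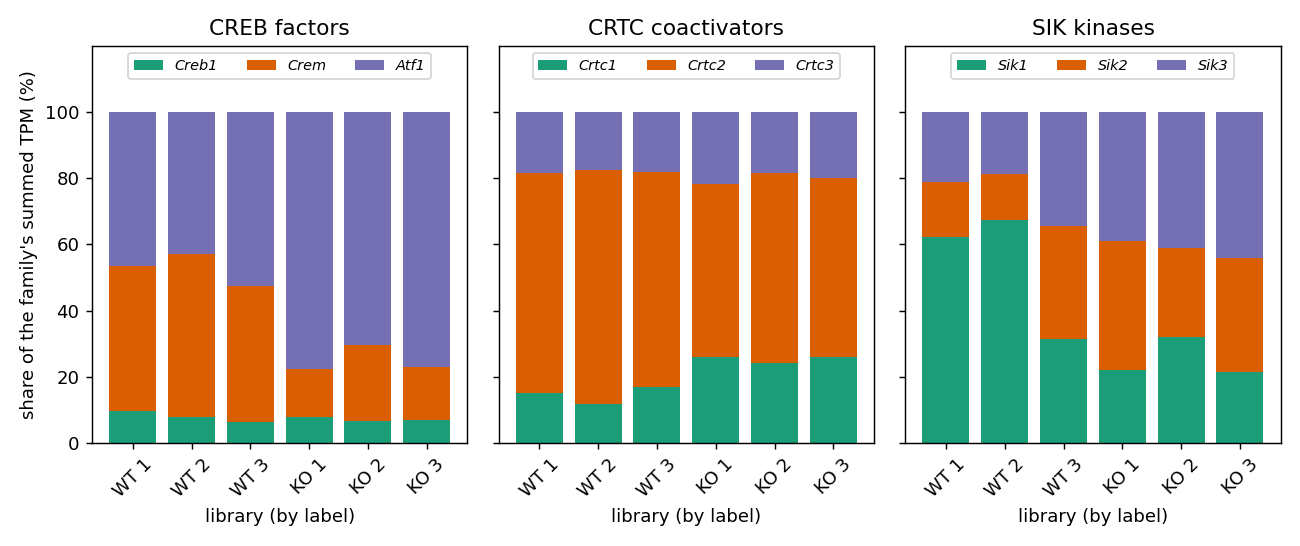
Share of each gene in the summed TPM of its family (%), in each of the 3 WT and 3 KO-labelled libraries, stacked to 100% for the CREB factors, the CRTC coactivators and the SIK kinases. Crem takes a smaller and Atf1 a larger share in all 3 KO-labelled libraries than in WT, Crtc1 takes 24.1 to 26.0% there against 11.7 to 16.8% in WT, and WT 3 differs from the other WT libraries in its SIK makeup.

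Around these genes, 83 others of the pathway were counted in 9 lists, of which 79 were tested. In the libraries labelled Sirt6 KO, 17 were called lower and 3 higher, and 59 did not pass. Over all genes tested, 8.39% were called lower and 7.85% higher. The median log2 fold change of the 79 genes was -0.34, against -0.02 over all genes tested. Without KO-labelled replicate 1 or without KO-labelled replicate 3, the count of pathway genes called was 0 in both directions. Over all genes, 2 were lower and 6 higher without KO-labelled replicate 1, and 5 and 8 without KO-labelled replicate 3. Among the 17 CREB target genes 10 were lower and 0 higher, with a median of -1.89. The study itself picked several of these targets, Ppargc1a and the Nr4a genes among them, from these libraries, so that count is not independent evidence of a direction. Nr4a3, an orphan nuclear receptor induced by exercise, was at 387, 670 and 314 CPM in WT and at 6.08, 19.9 and 4.99 CPM in the KO-labelled libraries. The groups were far apart (log2 fold change -5.47, SE 0.65, edgeR adjusted p = 0.0116). Its relative Nr4a2 was at 11.3, 7.36 and 2.25 CPM in WT and at 0.41, 0.841 and 0.636 CPM in the KO-labelled libraries (log2 fold change -3.46, SE 0.60, edgeR adjusted p = 0.0166). In Nr4a2, as in Sik1, WT replicate 3 was the lowest WT library.

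Pde4d, chosen here after its values were seen, stood out among the targets by its small spread. It encodes a phosphodiesterase that degrades cAMP, and was at 636, 668 and 670 CPM in WT and at 400, 369 and 402 CPM in the KO-labelled libraries. The groups lay apart (log2 fold change -0.75, SE 0.12, edgeR adjusted p = 0.0141). WT replicate 3, which was low in Sik1 and in the slow fiber markers, was level with the other WT libraries in Pde4d.

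Among the other CREB/ATF leucine zipper factors, 3 of 13 tested were lower and 1 was higher, beside 8.39% and 7.85% of all genes. Creb5 was at 4.74 ± 1.09 CPM in WT and at 2.08 ± 0.484 CPM in the KO-labelled libraries (log2 fold change -1.19, SE 0.27, edgeR adjusted p = 0.0292). Creb3l2, a membrane-bound factor of the secretory pathway, went the other way, from 5.85 ± 0.803 to 10.7 ± 1.14 CPM (log2 fold change 0.87, SE 0.16, edgeR adjusted p = 0.0186). The other 2 called lower were Crebrf and Atf4.

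Of 16 tested kinases that phosphorylate CREB or lie upstream of it, 0 were lower and 2 higher by edgeR, with 3 lower and 3 higher at an unadjusted p under 0.05, and 2 lower and 2 higher by DESeq2. For 16 genes, the unadjusted and DESeq2 counts are near the shares over all genes under the same rules. By edgeR, 8.39% of all genes were called lower and 7.85% higher. Camk2g, a calcium/calmodulin-dependent kinase, was at 164 ± 17.9 CPM in WT and at 239 ± 27.5 CPM in the KO-labelled libraries (log2 fold change 0.54, SE 0.14, edgeR adjusted p = 0.0403). Rps6ka4, which encodes the kinase MSK2, was at 8.57 ± 0.243 and 11.9 ± 0.801 CPM (log2 fold change 0.47, SE 0.12, edgeR adjusted p = 0.0371). The fold differences of these 2 kinases were small, at 1.45 and 1.39.

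The lists upstream and downstream of the SIKs are short, and their counts stand beside 8.39% of all genes called lower and 7.85% higher by edgeR. At an unadjusted p under 0.05, 18.1% of all genes were lower and 17.2% higher. DESeq2 called 13.2% lower and 12.7% higher. In the LKB1 complex 1 of 5 was lower, Cab39, whose product MO25 holds the complex together (393 ± 41.0 and 242 ± 34.7 CPM, log2 fold change -0.70, SE 0.15, edgeR adjusted p = 0.0266). Of 10 tested other kinases that LKB1 activates, 1 was lower, Nuak1 (57.5 ± 8.25 and 25.7 ± 8.52 CPM, log2 fold change -1.16, SE 0.23, edgeR adjusted p = 0.0224). Among 4 calcineurin subunits, Ppp3cc, a catalytic subunit, was lower (27.9 ± 1.41 and 18.4 ± 2.10 CPM, log2 fold change -0.60, SE 0.12, edgeR adjusted p = 0.0212). The 6 genes of 14-3-3 proteins had 0 calls by edgeR, with 3 lower at an unadjusted p under 0.05 and 3 lower by DESeq2. The 4 class IIa histone deacetylases, which SIKs also phosphorylate, had 0 calls by edgeR, with 1 lower and 1 higher at an unadjusted p under 0.05 and 1 higher by DESeq2. Of 4 other CREB coactivators 1 was lower, Taf4, a subunit of the general factor TFIID (15.3 ± 1.62 and 10.9 ± 0.527 CPM, log2 fold change -0.49, SE 0.12, edgeR adjusted p = 0.0382). At an unadjusted p under 0.05, the LKB1 complex had 3 genes lower and 1 higher, and the calcineurin subunits 2 lower. The other coactivators had 3 lower and the other LKB1-activated kinases 1 lower under that rule. DESeq2 called 3, 2, 2 and 1 genes of these 4 lists lower, in the same order, and 0 higher.

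**Figure D4:**
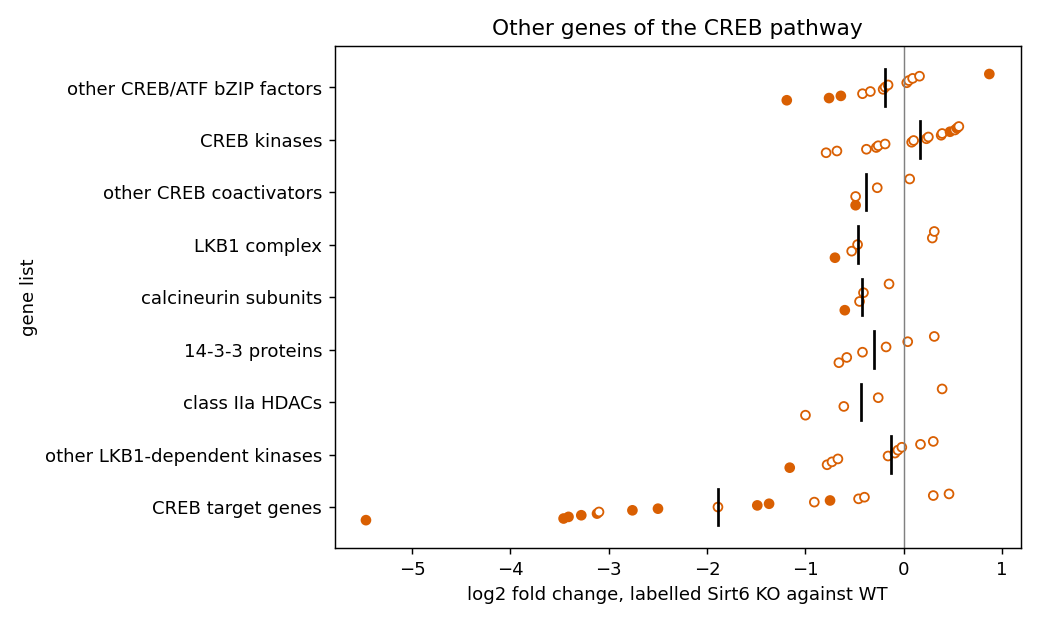
Log2 fold change (libraries labelled Sirt6 KO against WT) of the 79 tested genes of the 9 pathway lists, 1 point per gene, filled where the adjusted p was under 0.05, with a black line at each list's median. The CREB target genes spread furthest to the left, with a median of -1.89, while the CREB kinases have a median of 0.16.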

How the data were processed

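The 10 genes and the pathway lists were chosen with earlier results of these data known. Per the submitters' processing notes, reads were handled with bcl2fastq 2.20.0, FastQC 0.11.7, HISAT2 2.1.0, Bowtie2 2.3.4.1 and StringTie 2.1.3b on mm10, which is GRCm38, while another document of the study names STAR. The labels and the methods name different TruSeq kits, and whether counting used strand is not given in the sources used here, so a gene and its antisense partner may share reads.

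The authors deposited, per gene and library, the raw read count, the FPKM and the TPM in one table. From the counts, edgeR 4.0.16 (R 4.3.3) was run with filterByExpr, TMM factors (0.909 to 1.11) and the quasi-likelihood test of group, with two-sided p adjusted by Benjamini-Hochberg over 13801 genes and a call at an adjusted p under 0.05. The common biological coefficient of variation was 24.1%. Log2 fold changes are from this fit, and CPM values are given as mean ± SD over 3 libraries. The test gives no standard error. The SE shown is the absolute log2 fold change divided by the square root of the quasi-likelihood F statistic. The fits were first run on simulated data with known changes. Deposited TPM was used for levels between genes and for shares, which were compared by exact permutation over libraries, and deposited FPKM for implied lengths and for limma 3.58.1. Alternatives were DESeq2 1.42.0, DESeq2 size factors, testing every gene with any count, testing only genes with 10 or more counts in each library, limma on quantile-normalized log2(FPKM + 1) or log2(FPKM + 0.1) for genes with FPKM above 1 in any library, the replicate number as a block, the log2 summed slow fiber level as a covariate, a per-library lowess trend over gene GC content (span 0.3, known for 96.2% of tested genes) removed, and leaving out each library.

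Genes named were the 10 members, from each pathway list the 2 called genes with the largest absolute log2 fold change, and Sirt6 as the label check. Marker genes that were called, antisense neighbours, Pde4d, Crebrf and Atf4 were named after their values were seen. The values of a further marker gene are not reported here. Each library is labelled as a separate replicate, and p-values measure the spread between these samples.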

Additional observations from a re-analysis of the deposited data

How the results depend on the processing

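Of the log2 fold changes that the alternatives gave for the 10 members, 131 kept their direction and side of the threshold, 14 kept their direction but lost the call, 4 kept it and gained a call, and 1 changed sign, Atf1 at 0.0012 with the GC trend removed. Members called lower, 3 in the fit reported, were 5 with the slow fiber covariate and 1 to 3 when 1 library was left out. Members called higher, 1 in the fit reported, were 0 with the GC trend removed and 0 to 1 when 1 library was left out. Of the 79 tested pathway genes, 17 lower became 29 with DESeq2, 30 with the slow fiber covariate and 0 to 27 when 1 library was left out, and 3 higher became 1 with the GC trend removed, 7 with the slow fiber covariate and 0 to 7 when 1 library was left out. With the GC trend removed, 14 pathway genes and 3 members were lower. Over all genes, 1158 lower and 1084 higher became 1820 and 1746 with DESeq2, 1999 and 1971 with the slow fiber covariate, 479 and 455 with the GC trend removed, 2 and 6 without KO-labelled replicate 1, 5 and 8 without KO-labelled replicate 3, and 2219 and 2363 without WT replicate 3. The counts over all genes were 259 and 181 without WT replicate 1, 153 and 96 without WT replicate 2, and 442 and 431 without KO-labelled replicate 2. Why these counts moved was not tested. With the replicate block, 3 members were lower and 1 higher, and the pathway genes were 17 lower and 1 higher. Over all genes the block gave 1018 lower and 904 higher. The numbers do not pair the samples by any label, and deviations of same-numbered libraries correlated at -0.106, 0.26 and 0.161. Family shares were recomputed from FPKM or with 1 library left out. Those from FPKM were no check, as FPKM and TPM differ by 1 factor per library and give the same shares. Counting these, the 63 differences in share moved by less than the larger of the 2 group SDs. Within that limit, those of Creb1 (-0.868 percentage points, -1.65 to -0.0267 with 1 library left out), Crtc3 (1.97, 1.06 to 2.81) and Sik2 (12.0, 8.25 to 18.3) varied widely. That of Sik1 moved most in percentage points (-28.6, -39.8 to -21.8), and its limit was wide, a WT SD of 19.5. That of Sik3 (16.6) ran from 13.5 to 21.4. With 3 libraries a group the exact permutation test could not go below p = 0.1, and a log2 difference the size of that of Crebbp (SE 0.12) did not pass.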
